A study of Mus musculus with 8 samples.

Results

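RAB GTPases are small membrane-bound switches, and the DENN proteins are exchange factors that turn them on. Genes of both kinds were compared between light zone and dark zone germinal centre B cells of the mouse. A gene was counted as a member if its single symbol in the array's probe annotation began with Rab and a digit, or with Dennd. The rule found 88 of the 18193 named genes, 72 by the first pattern and 16 by the second. The brightest probe set of a gene, by its mean in the 8 arrays, stood for it, so the level was used in choosing the probe set and is given as a description. The rule itself does not use the difference between the zones, but these gene families were taken up with earlier results of the same arrays known. The members comprised 85 protein coding genes and 3 noncoding genes named for a RAB gene nearby, and the symbol rule also took in proteins that bind or regulate RABs.

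Germinal centre B cells carrying B220 and CD95 and lacking CD38 were sorted from lymph nodes. The C57BL/6 donors had received NP-KLH in alum subcutaneously, and tissue was taken on day 12. All mice had this treatment, and no genetic change is named in the labels. The light zone and dark zone populations had 4 arrays each, called biological replicates in the labels, which do not say whether animals were pooled, so p-values measure the spread between these samples. Arrays are numbered below by their replicate. In the labels the light zone gate reads CXCR4hi/CD83lo and the dark zone gate CXCR4lo/CD83hi, the reverse of the usual definition, but the mRNA followed the zone titles: Cd83 had an intensity of 7382 ± 195 in light zone arrays and 1478 ± 111 in dark zone arrays, and Cxcr4 804 ± 39.3 in light zone arrays and 1571 ± 125 in dark zone arrays (SD, n = 4 each). Groups were taken from the titles.

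RAB proteins cycle between a GDP-bound form held in the cytosol and a GTP-bound form on a membrane, where they recruit tethers, motors and coat regulators. Each RAB marks particular compartments, such as early endosomes, lysosomes or the Golgi. Exchange factors load GTP, GTPase-activating proteins of the TBC family end the signal, and GDI and escort proteins carry the inactive form. In B cells this traffic moves antigen taken up by the receptor towards compartments where it is loaded on MHC class II, and returns receptors to the surface.

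The 8 arrays had median intensities between 27.3 and 28.1, and correlated at 0.995 to 0.997 within a zone and at 0.974 to 0.980 between zones over the tested genes. Of the list of 10 germinal centre B cell markers, 8 could be measured, all above the brightness filter, and their summed intensity was 29460 to 30020 in light zone arrays and 28010 to 28980 in dark zone arrays. Single markers differed in both directions. Cd22 (log2 difference 0.66, SE 0.06) and Fas (0.23, SE 0.06) were higher in the light zone (limma adjusted p under 0.05). Gcsam (-1.48, SE 0.06) and S1pr2 (-0.26, SE 0.07) were lower, and 4 did not pass. T cell markers were near the floor, with 6 of 8 measured genes below the filter and sums of 176.6 to 181.9 in light zone arrays and 172.5 to 183.9 in dark zone arrays. Sums of 7 stromal, follicular dendritic and endothelial markers, 4 below the filter, were 295.5 to 378.2 in light zone arrays and 290.9 to 314.3 in dark zone arrays. Those of 5 plasma cell markers, mostly Jchain and Xbp1, were 10750 to 12070 in light zone arrays and 11720 to 12260 in dark zone arrays. Of these 5, the transcription factors Irf4 (2.03, SE 0.09) and Prdm1 (1.37, SE 0.12) were higher in the light zone. Jchain was lower (-0.151, SE 0.057), and Sdc1 (0.144, SE 0.071) and Xbp1 (0.146, SE 0.074) did not pass. The dark zone mean of Prdm1, 17.6, lay under the filter of 27.8, so Prdm1 was tested only because of its light zone level of 45.4. The part of these genes in the members' differences was not tested. Sums of 4 markers of red blood cells and platelets, all below the filter, were 51.0 to 53.4 in light zone arrays and 53.9 to 58.9 in dark zone arrays. The 10 measured myeloid markers summed to 473.1 to 592.2 in light zone arrays and 516.7 to 1444 in dark zone arrays, with 3 below the filter, and Lyz2 led the difference. In sorted bulk RNA, fewer cells of a type and less RNA per cell cannot be told apart.

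Of the 88 members, 66 passed the filter on dim probe sets, a mean intensity of at least 27.8, and 22 did not. Among the 66 tested, 23 were higher in the light zone, 8 were lower and 35 did not pass (limma, Benjamini-Hochberg adjusted p under 0.05 over all genes tested). Over all 10547 genes tested, 43.9% passed, 24.8% as higher in the light zone and 19.1% as lower, and the shares of the tested members were 47.0%, 34.8% and 12.1%. A member's call as such was therefore about as common as any gene's. For the 41 tested RAB GTPase genes alone the shares were 39.0%, 24.4% and 14.6%. Rab26os and Rab37, counted in the shares of this paragraph, passed the filter only through their light zone level. Without them 64 members were tested, of which 21 were higher, 7 of them by at least 1.5-fold, and 8 were lower. The median difference (light zone minus dark zone, log2) was 0.034 over the tested members and 0.006 over all tested genes. Differences of at least 1.5-fold were higher in the light zone in 9 members and lower in 0, where 6.19% and 3.86% of all tested genes reached that size; the lowest difference of a tested member was -0.514. The arrays of the zones did not overlap in 31 members, 47.0% of those tested, against 41.3% of all genes tested.

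**Figure D1:**
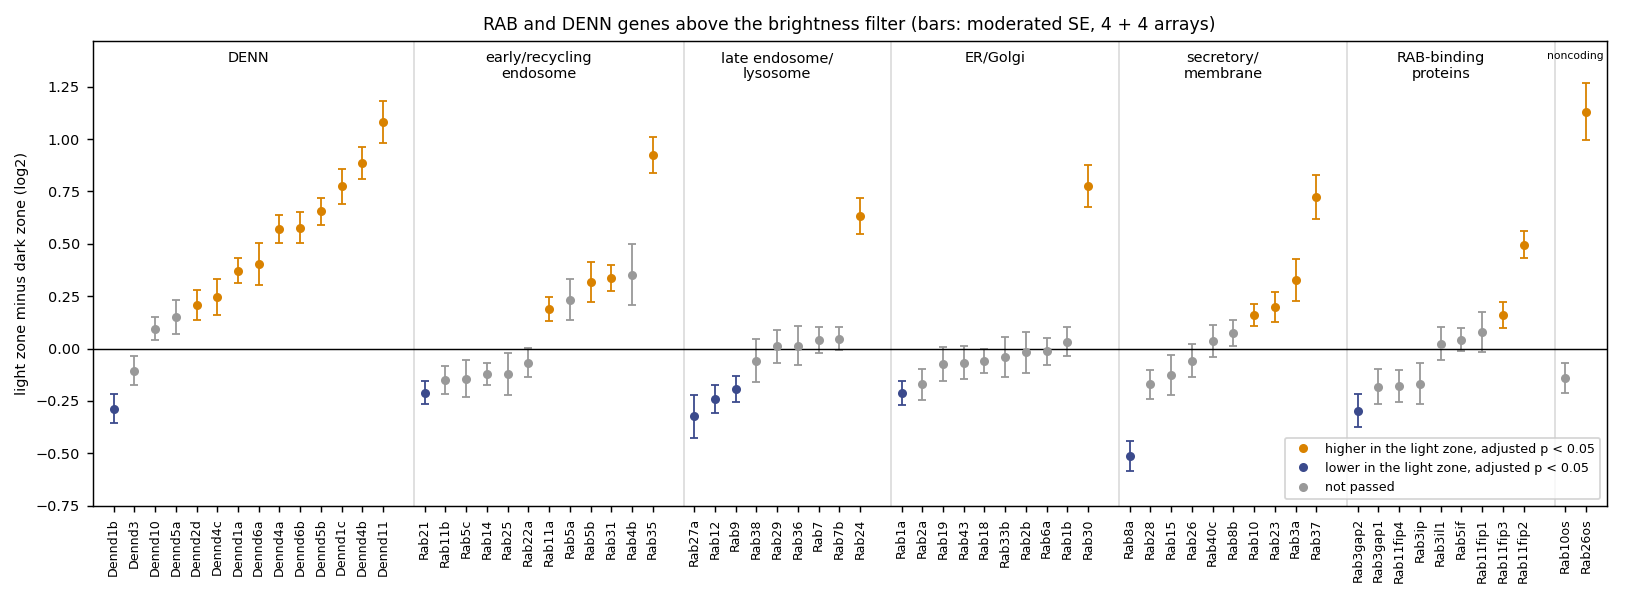
Light zone minus dark zone difference (log2 scale, vertical axis) of each of the 66 tested members, grouped by role; points are fitted differences, bars the moderated standard errors, and colour the call. Most DENN genes lie above 0, up to 1.08 for Dennd11, while most ER and Golgi RABs lie near 0.

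The genes with a Dennd symbol were mostly higher in the light zone. Of 16, 14 were bright enough to test: 10 were higher in the light zone, 1 was lower and 3 did not pass. That is 71.4% higher and 7.14% lower, beside 24.8% and 19.1% of all genes tested, and the median difference was 0.388. Without single arrays the count higher was 8 to 10 and the count lower stayed at 1. With the mean of all probe sets 8 were higher and the median was 0.217, and with the filter at the 25th percentile 2 were lower. The DENN domain has the exchange activity, and which RAB a given DENN protein activates is known mainly from human proteins. Genes with a DENN domain but another symbol are not in these counts. Among those measured with the other exchange factors, Madd was lower in the light zone (-0.256, SE 0.094). Sbf1 (0.141, SE 0.069), Sbf2 (0.079, SE 0.074), Avl9 (0.187, SE 0.073), C9orf72 (0.234, SE 0.149) and Smcr8 (0.19, SE 0.082) did not pass.

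Dennd11, a DENN domain gene, had the largest difference of any protein coding member. Its intensity was 693, 682, 801 and 732 in light zone arrays and 286, 322, 377 and 397 in dark zone arrays. The lowest light zone array was well above the highest dark zone array. The difference was 1.08 (SE 0.10, limma adjusted p = 3.8e-06), a 2.12-fold higher level in the light zone. A second probe set near the floor of the arrays gave -0.109 (SE 0.085).

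The DENND4 proteins activate RAB10, as shown in human cells, and all 3 genes were higher in the light zone. Dennd4b was at 952, 945, 908 and 1021 in light zone arrays and 558, 489.8, 464 and 565 in dark zone arrays, with no overlap and a difference of 0.89 (SE 0.08, limma adjusted p = 2.1e-06). Dennd4a was at 820.1, 937, 859.5 and 783 in light zone arrays and 599, 558, 577 and 549.8 in dark zone arrays, again without overlap. Its difference was 0.57 (SE 0.07, limma adjusted p = 3.2e-05), and its dimmer probe set passed the same way at 0.388 (SE 0.095). Dennd4c differed less, by 0.25 (SE 0.09, limma adjusted p = 0.0378). Its light zone arrays lay between 127 and 139 and its dark zone arrays between 93.6 and 124, where replicate 1 was lowest. The difference of Dennd4c was 0.159 without dark zone array 1, and its call was lost without light zone array 1, 2 or 4 or dark zone array 1 or 2 (limma adjusted p = 0.0673 to 0.0897).

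Rab10 itself, which moves vesicles from the Golgi and endosomes to the plasma membrane, was at 2311 to 2426 in light zone arrays and 2063 to 2169 in dark zone arrays. The zones did not overlap, but the difference was small, at 0.159 (SE 0.053, limma adjusted p = 0.0304). Of its dimmer probe sets, 1 gave -0.024 (SE 0.071) and the other -0.147 (SE 0.087), and the mean of all 3 was -0.004, so the direction of Rab10 depends on the probe set. Its call was also lost without light zone array 1, 2 or 3 or dark zone array 2 or 4 (limma adjusted p = 0.0547 to 0.0747). The noncoding Rab10os, which overlaps Rab10 in the RefSeq table, was at -0.139 (SE 0.071, limma adjusted p = 0.134).

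The DENND1 genes went in both directions. Their proteins act at clathrin-coated pits and endosomes and activate RAB35 in human cells. Dennd1c was at 286, 298, 257 and 236 in light zone arrays and 169, 159.6, 142 and 158 in dark zone arrays. The zones did not overlap, and the difference was 0.78 (SE 0.08, limma adjusted p = 1.4e-05). The second probe set above the filter gave 0.47 (SE 0.083) and passed too. Dennd1a was higher in the light zone by 0.37 (SE 0.06, limma adjusted p = 3.4e-04), with light zone arrays between 90.6 and 94.9 and dark zone arrays between 67.1 and 76.7. Dennd1b, also called connecdenn 2, went the other way. It was at 1409, 1249, 1374 and 1207 in light zone arrays and 1649.7, 1659, 1562 and 1515 in dark zone arrays, and its difference was -0.29 (SE 0.07, limma adjusted p = 0.00465). Its probe sets disagreed: the 2 dimmer ones above the filter gave -0.693 (SE 0.10), which passed, and 0.142 (SE 0.102), which did not.

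Rab35, the GTPase that DENND1 proteins act on, returns receptors from endosomes to the plasma membrane. It had 1 probe set, at 645, 756, 684 and 830.4 in light zone arrays and 403, 380.4, 346 and 403 in dark zone arrays. Every light zone array was above every dark zone array. The difference was 0.92 (SE 0.085, limma adjusted p = 3.9e-06), 1.90-fold, the largest of any RAB gene. The stretch before its gene start is shown because Rab35 led the RABs. It lies at chr5:115631737-115631986 on the + strand (RefSeq, GRCm38.p6), runs 5′ to 3′ and is 78.8% G and C.
Rab35: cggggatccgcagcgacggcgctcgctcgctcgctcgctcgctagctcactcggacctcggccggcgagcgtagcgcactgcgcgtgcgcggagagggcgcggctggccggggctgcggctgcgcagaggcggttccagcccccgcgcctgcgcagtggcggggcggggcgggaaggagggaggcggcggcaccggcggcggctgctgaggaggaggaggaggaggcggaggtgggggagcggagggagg

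The DENND5 and DENND6 genes were also higher in the light zone where they passed. DENND5 proteins activate RAB39 and DENND6 proteins RAB14, both in human cells. Dennd5b was at 1714, 1859, 1809.8 and 1610.4 in light zone arrays and 1106, 1084, 1185 and 1062 in dark zone arrays. The zones did not overlap, and the difference was 0.66 (SE 0.07, limma adjusted p = 7.7e-06). All 3 dimmer probe sets had the same sign, at 0.240 to 0.367, and 1 of them passed. Dennd5a was at 0.150 (SE 0.081, limma adjusted p = 0.155), with overlapping zones.

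Dennd6b was at 85.03, 86.0, 81.8 and 83.0 in light zone arrays and 53.2, 59.7, 50.5 and 62.8 in dark zone arrays. The difference was 0.58 (SE 0.07, limma adjusted p = 6.1e-05), with no overlap. The other probe set of Dennd6b above the filter gave -0.032 (SE 0.108), and the mean of all its probe sets lost the call at 0.125 (limma adjusted p = 0.103). Dennd6a rose by 0.40 (SE 0.10, limma adjusted p = 0.00667) in the light zone. Its lowest light zone array, 150.9, barely cleared its highest dark zone array, 150.7.

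The partners of these factors did not all follow. Rab39, a RAB of the Golgi and endosomes, was too dim to test. Its intensity was 30.1, 23.6, 26.6 and 24.6 in light zone arrays and 15.5, 14.8, 17.2 and 17.2 in dark zone arrays, a difference of 0.69 without overlap. With no filter it passed (SE 0.083, limma adjusted p = 2.5e-05), as did 25.7% of all genes in that fit. Rab14, a RAB of endosomes and the trans-Golgi network, was at 2334 to 2434 in light zone arrays and 2533 to 2696 in dark zone arrays. Its arrays did not overlap, but the difference of -0.121 did not pass (SE 0.054, limma adjusted p = 0.0893). Of its 6 dimmer probe sets, 1 passed at -0.426 (SE 0.092), and the others lay between -0.127 and 0.126.

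The last DENN genes changed little. Dennd2d, of a subfamily that activates RAB9 in human cells, was higher by 0.21 in the light zone (SE 0.07, limma adjusted p = 0.0326), but its zones overlapped because dark zone array 1, at 236, stood above the other dark zone arrays. Its call was lost without light zone array 1, 2 or 4 or dark zone array 2, 3 or 4 (limma adjusted p = 0.0598 to 0.0884), and a dimmer probe set gave -0.101 (SE 0.087). Dennd3, an activator of RAB12 in mammalian cells, was at -0.105 (SE 0.068, limma adjusted p = 0.236). Dennd10 was at 0.094 (SE 0.055, limma adjusted p = 0.191). Dennd2a and Dennd2c were too dim to test.

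**Figure D2:**
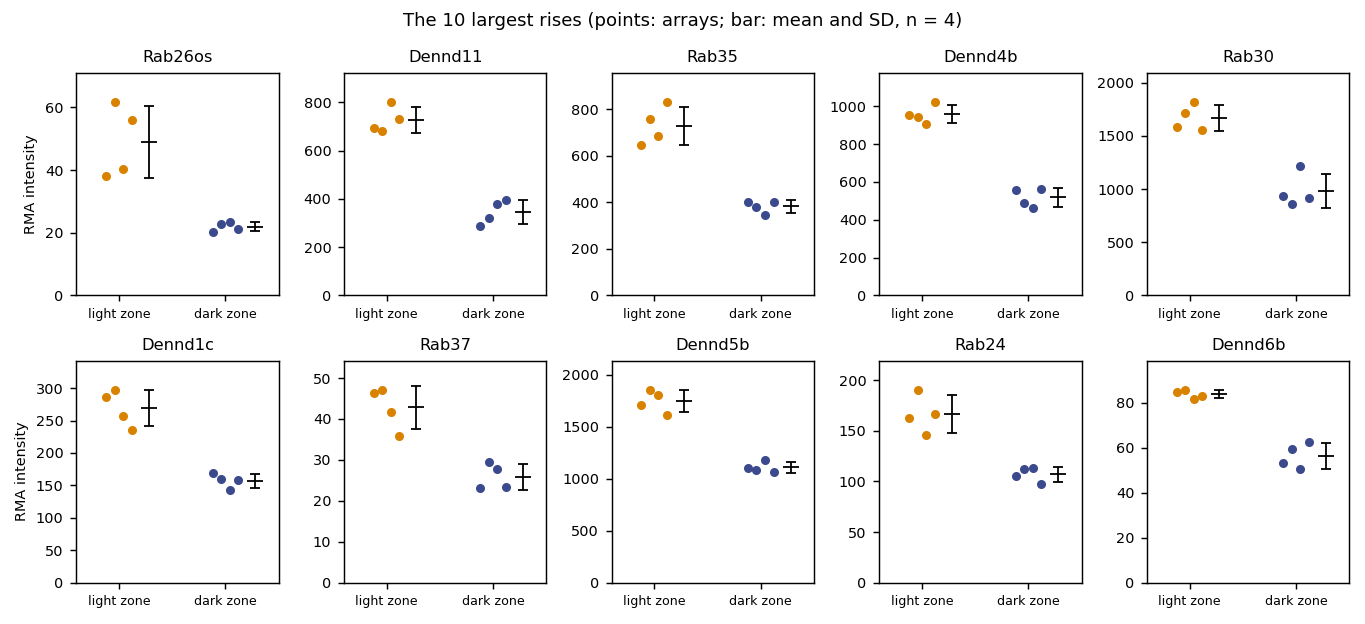
RMA intensity (linear axis from 0) in the 4 light zone and 4 dark zone arrays for the 10 members with the largest rises; points are arrays, bars the mean and SD. In every panel all light zone points lie above all dark zone points, with Rab26os the most scattered in the light zone.

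Among the RABs of early and recycling endosomes, 12 of 15 were tested: 4 were higher in the light zone, 1 was lower and 7 did not pass, with a median of 0.060. The share called, 41.7%, was near the 43.9% of all genes tested. Rab35 led. Rab31, a relative of RAB5 that acts between the Golgi and endosomes, was at 65.1, 69.9, 72.3 and 76.1 in light zone arrays and 54.9, 56.1, 56.6 and 56.3 in dark zone arrays. The difference of 0.34 (SE 0.06, limma adjusted p = 8.9e-04) exceeded the spread in either zone. Of the RAB5 genes, whose proteins organise fusion of early endosomes, Rab5b was higher by 0.32 (SE 0.10, limma adjusted p = 0.0172), Rab5a was at 0.234 (SE 0.097, limma adjusted p = 0.0701) and Rab5c at -0.145 (SE 0.088, limma adjusted p = 0.206).

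Rab11a, the RAB of the recycling endosome, was at 755 to 775 in light zone arrays and 633 to 718 in dark zone arrays, and differed by 0.19 (SE 0.06, limma adjusted p = 0.0213). Its call was lost without light zone array 3 or dark zone array 2 or 4 (limma adjusted p = 0.0536 to 0.0579), and its dimmer probe set gave -0.144 (SE 0.090). Rab11b was at -0.151 (SE 0.067, limma adjusted p = 0.0899), and of its dimmer probe sets 1 passed at -0.332 (SE 0.061) and the other gave 0.002 (SE 0.09). Rab21, which carries integrins through endosomes, was lower in the light zone. It was at 1751, 1723, 1642 and 1777 in light zone arrays and 2033, 2041, 1995 and 1904 in dark zone arrays, and differed by -0.21 (SE 0.06, limma adjusted p = 0.0101) without overlap, and its dimmer probe set passed at -0.501 (SE 0.064). Rab4b, of the fast recycling route, had a larger but more scattered difference of 0.353 (SE 0.144, limma adjusted p = 0.0653). It was at 210, 175, 164 and 146 in light zone arrays and 179, 134, 128 and 108 in dark zone arrays. In both zones replicate 1 was highest and replicate 4 lowest. With the replicate block, 5 of this group were higher, and without single arrays 3 to 6. The count lower in this group was 2 without light zone array 1 or dark zone array 1 or 2 and with a trended, robust variance, and with the mean of all probe sets only 1 was higher and 2 were lower.

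Of 14 RABs of late endosomes, lysosomes and related organelles, 9 were tested, with 1 higher in the light zone, 3 lower and 5 that did not pass. The share called was 44.4%, beside 43.9% of all genes tested. Rab24, which is linked to autophagy, was at 162, 190.7, 146 and 166 in light zone arrays and 105, 113, 113 and 97.2 in dark zone arrays. The zones did not overlap and the difference was 0.63 (SE 0.085, limma adjusted p = 8.5e-05), with 0.252 (SE 0.088) from the dimmer probe set. Rab7, the main RAB of late endosomes and lysosomes, had 1467 to 1491.5 in light zone arrays and 1323 to 1531 in dark zone arrays. Its zones overlapped, and the difference was 0.039 (SE 0.062, limma adjusted p = 0.645).

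The 3 that were lower, Rab27a, Rab12 and Rab9, had modest differences. Rab27a, which docks lysosome-related granules at the plasma membrane, was at 40.0, 30.4, 43.3 and 36.3 in light zone arrays and 43.6, 43.4, 48.0 and 51.5 in dark zone arrays. The highest light zone array nearly reached the lowest dark zone array. The difference was -0.32 (SE 0.10, limma adjusted p = 0.0238), and the call was lost without light zone array 2 or 4 or dark zone array 3 or 4 (limma adjusted p = 0.0535 to 0.0682). Rab12, which sends receptors from recycling endosomes to lysosomes, was at 99.95, 92.1, 93.9 and 102.9 in light zone arrays and 108, 125, 118 and 109.95 in dark zone arrays, and differed by -0.24 (SE 0.07, limma adjusted p = 0.0116). The dimmer probe set of Rab12 gave 0.069 (SE 0.082), and the mean of both lost the call at -0.087.

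Rab9, which returns cargo from late endosomes to the Golgi, was at 750.2, 770.5, 745 and 722 in light zone arrays and 932, 804, 856 and 824 in dark zone arrays. The difference was -0.19 (SE 0.06, limma adjusted p = 0.0268) without overlap. The call of Rab9 was lost without light zone array 3 or 4 or dark zone array 1 or 3 (limma adjusted p = 0.053 to 0.0674) and when arrays were centred on their medians. Only 1 of this group was lower without light zone array 4 or dark zone array 3.

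Rab32, which builds lysosome-related organelles, was too dim to test. Its intensity was 12.9, 15.9, 13.9 and 16.2 in light zone arrays and 20.4, 23.8, 26.6 and 22.9 in dark zone arrays, a difference of -0.67 without overlap. With no filter it passed (SE 0.092, limma adjusted p = 7.9e-05). Beside these values stand those of the myeloid marker Lyz2, at 43.0, 40.7, 37.7 and 89.1 in light zone arrays and 128, 461, 466 and 824 in dark zone arrays. Lyz2 was highest in dark zone array 4 and Rab32 in dark zone array 3. Both had their lowest dark zone value in the same array (Rab32 20.4, Lyz2 128). Among light zone arrays both were highest in array 4 (Rab32 16.2, Lyz2 89.1). Fcer1g and Csf1r were also lower in the light zone (-0.714, SE 0.136, and -0.399, SE 0.126), while Cd68 was higher (0.401, SE 0.092). The other tested myeloid markers, Mpeg1 (0.183, SE 0.128), Adgre1 (-0.068, SE 0.066) and Tyrobp (-0.019, SE 0.307), did not pass. The part of myeloid RNA in the members' differences was not tested.

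Few RABs of the ER and Golgi passed. Of 14, 10 were tested, 1 was higher in the light zone, 1 was lower and 8 did not pass, with a median of -0.050. That is 20% called, beside 43.9% of all genes tested. Rab30, a Golgi RAB, was the exception, at 1584, 1718, 1817 and 1560.3 in light zone arrays and 933, 862, 1219.9 and 915 in dark zone arrays. Dark zone array 3 stood above the other dark zone arrays and still below every light zone array. The difference was 0.78 (SE 0.10, limma adjusted p = 6.9e-05), and a dimmer probe set passed with 0.849 (SE 0.111).

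Rab1a, needed for transport from the ER to the Golgi, was at 4223, 4001, 4038 and 4344 in light zone arrays and 4956, 4904, 4730 and 4646 in dark zone arrays. It was lower in the light zone by a small and even amount, -0.21 (SE 0.06, limma adjusted p = 0.01). Its dimmer probe sets gave 0.077 (SE 0.077) and -0.207 (SE 0.091), and the mean of all lost the call at -0.114 (limma adjusted p = 0.097). Rab1b was at 0.033 (SE 0.069, limma adjusted p = 0.732). Rab6a, of transport within and from the Golgi, was at -0.014 (SE 0.065, limma adjusted p = 0.881), although its 2 dimmer probe sets passed at 0.194 and 0.287. Likewise Rab2b was at -0.018 (SE 0.099), while dimmer probe sets passed at 0.323 and 0.354. Rab43 was at -0.067 (SE 0.077), while a dimmer probe set passed at 0.321 (SE 0.089). Rab2a was at -0.171 (SE 0.074), and a dimmer probe set passed at -0.223 (SE 0.073). Calls of single genes in this group therefore depend on the probe set chosen. Without light zone array 2 or dark zone array 1, with a trended, robust variance or with array weights, 2 of the group were lower. With no filter, or the filter at the 25th percentile, 3 of 14 were higher and 1 was lower, where 25.7% and 31.2% of all genes passed. With the mean of all probe sets 2 of 10 were higher and 1 was lower, where 44.2% of all genes passed.

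Of 16 RABs of secretion, the plasma membrane and the cilium, 10 were tested. Of these, 4 were higher in the light zone, 1 was lower and 5 did not pass, so that 50% were called, beside 43.9% of all genes tested. The 4 higher and the 50% include Rab37. Rab37, a RAB of secretory granules, was dim, at 46.4, 47.2, 41.7 and 35.9 in light zone arrays and 23.1, 29.4, 27.8 and 23.3 in dark zone arrays. The zones did not overlap and the fitted difference was 0.72 (SE 0.10). Its dark zone mean, 25.9, lay under the filter of 27.8, so that Rab37 was tested only because of its light zone level of 42.8. Its other probe set lay below the filter and gave 0.068 (SE 0.090). Rab3a, a RAB of regulated exocytosis, was at 222, 226, 215 and 243 in light zone arrays and 143, 201, 204 and 180.2 in dark zone arrays. Its difference of 0.33 (SE 0.10, limma adjusted p = 0.0218) was 0.215 without dark zone array 1, its lowest array, and its call was lost without light zone array 4 (limma adjusted p = 0.0607). The dimmer probe set of Rab3a, also above the filter, gave 0.1 (SE 0.057) and did not pass.

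Rab23, a RAB of the primary cilium in other cell types, was higher by 0.20 (SE 0.07, limma adjusted p = 0.0396), with overlapping zones and dimmer probe sets at -0.049 and -0.088. Its call was lost without light zone array 2, 3 or 4 or dark zone array 1, 2 or 3 (limma adjusted p = 0.0599 to 0.116). Only 2 of this group were higher without light zone array 2, 3 or 4 or dark zone array 2, with no filter, or with the mean of all probe sets; the count lower was 2 without dark zone array 2 or 4, with the mean of all probe sets and with a trended, robust variance.

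Rab8a, which brings vesicles from the Golgi to the plasma membrane, was the tested member most reduced in the light zone. It was at 225, 232, 250.2 and 231 in light zone arrays and 359, 343, 347 and 293 in dark zone arrays. The zones were well separated, and the difference was -0.51 (SE 0.07, limma adjusted p = 1.4e-04), a dark zone level 1.43-fold that of the light zone. A dimmer probe set gave -0.131 (SE 0.068) and did not pass. Its close relative Rab8b was at 0.074 (SE 0.061, limma adjusted p = 0.354), with overlapping zones.

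**Figure D3:**
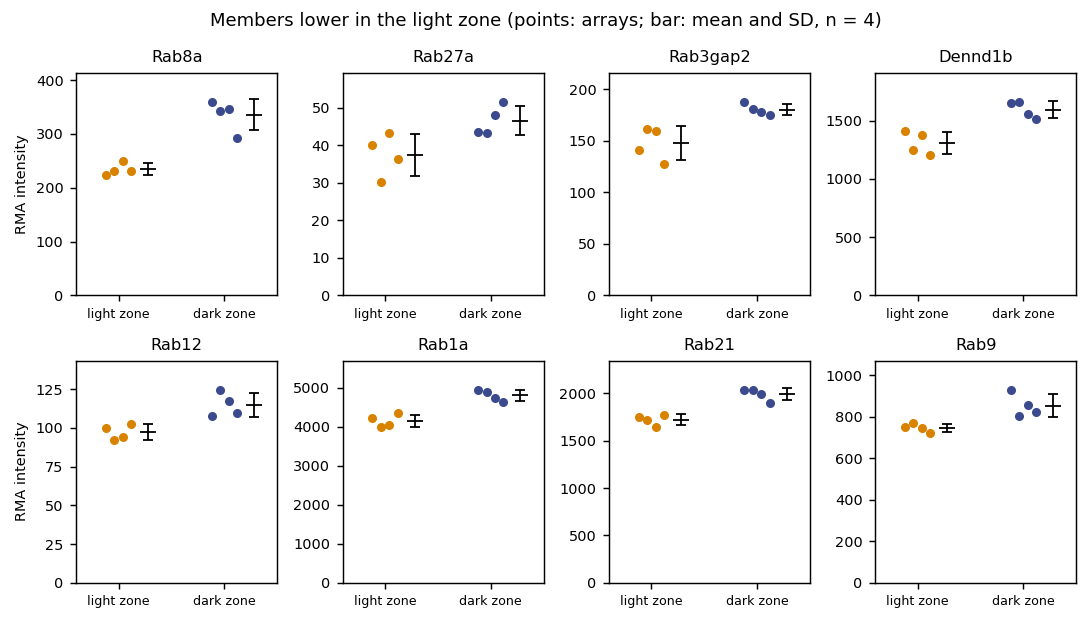
RMA intensity (linear axis from 0) in the 4 light zone and 4 dark zone arrays for the 8 members lower in the light zone; points are arrays, bars the mean and SD. Rab8a shows the widest gap, and in Rab27a the zones almost touch.

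Of 10 protein coding members that bind or regulate RABs, 9 were tested, with 2 higher in the light zone, 1 lower and 6 that did not pass (33.3% called, beside 43.9% of all genes tested). Rab11fip2, an effector that links RAB11 to myosin V motors, was at 147, 133, 131.5 and 138 in light zone arrays and 104, 100.3, 91.6 and 94.5 in dark zone arrays. There was no overlap, and the difference was 0.50 (SE 0.06, limma adjusted p = 6.4e-05), but its dimmer probe set above the filter gave 0.009 (SE 0.127). Rab11fip3, a RAB11 effector used in cytokinesis, was higher by 0.16 (SE 0.06, limma adjusted p = 0.0494). That call was lost in every fit without 1 array other than dark zone array 4 (limma adjusted p = 0.0572 to 0.135).

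Rab3gap2, the noncatalytic subunit of the GTPase-activating complex for RAB3, was lower in the light zone. It was at 141, 162, 159.7 and 127 in light zone arrays and 187, 181, 178 and 175 in dark zone arrays, and differed by -0.30 (SE 0.08, limma adjusted p = 0.00964) without overlap. A dimmer probe set gave 0.076 (SE 0.092). The catalytic subunit Rab3gap1 was at -0.182 (SE 0.085, limma adjusted p = 0.102). The count lower in the group was 2 without light zone array 1 or dark zone array 1 or 2 and with array weights, and 0 with the mean of all probe sets. The count higher was 1 in every fit that lost Rab11fip3, which also include no filter, the filter at the 25th percentile, a second quantile normalization and a trended, robust variance.

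A noncoding gene also stood higher in the light zone. Rab26os, next to Rab26 in the RefSeq table, was at 38.1, 61.7, 40.3 and 55.9 in light zone arrays and 20.4, 22.9, 23.4 and 21.1 in dark zone arrays. Light zone arrays fell into a higher and a lower pair, and both lay above all dark zone arrays, which were below the level of the filter. The fitted difference was 1.13 (SE 0.14). Its dark zone mean, 21.9, was near the dim end of the arrays and its size is therefore uncertain, and Rab26os was tested only because of its light zone level of 49.0. Rab26 itself, a RAB of secretory vesicles, was at -0.059 (SE 0.079, limma adjusted p = 0.579).

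Relatives of the same number with different letters were set against each other as a description, since these pairs were formed with their values known. The gap is the difference between zones of the log2 ratio of both genes within an array. In a two-sided exact permutation test over 70 arrangements, 0 of 16 pairs passed after adjustment over the pairs. The smallest p the design can give is 0.0286, found in 7 pairs, and it was 0.0654 after adjustment. At that floor a pair could not pass by itself, so the test cannot decide about single pairs. The ratio did not overlap between zones in these 7. The widest gap was between Dennd1c and Dennd1b, at 1.06 (SE 0.09), followed by Dennd1a and Dennd1b, at 0.66 (SE 0.08), and Dennd4b and Dennd4c, at 0.64 (SE 0.14). Next were Rab8b and Rab8a, at 0.59 (SE 0.07), Dennd5b and Dennd5a, at 0.51 (SE 0.10), Rab11a and Rab11b, at 0.34 (SE 0.06), and Rab1b and Rab1a, at 0.25 (SE 0.07). In the other 9 pairs the ratios overlapped between zones, as for Dennd6b and Dennd6a, with a gap of 0.17 (SE 0.15).

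Probe sets of the same gene did not always give the same difference. The members had 192 probe sets, and 57 of 88 had more than 1. Of the 31 called members, 19 had another probe set above the filter, with 24 such probe sets in all. Of these, 14 had the same sign as the brightest probe set and 10 the opposite sign; 6 passed the same way (Dennd1b, Dennd1c, Dennd4a, Dennd5b, Rab21 and Rab30) and 0 passed the opposite way, in a limma fit over all named probe sets. The other 12 called members, Rab35, Dennd11 and Dennd4b among them, had no second probe set above the filter. Among tested members that were not called, dimmer probe sets of Rab11b, Rab14, Rab28, Rab2a, Rab2b, Rab43 and Rab6a passed. Those of Rab2b, Rab43 and Rab6a had the opposite sign to the brightest probe set.

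**Figure D4:**
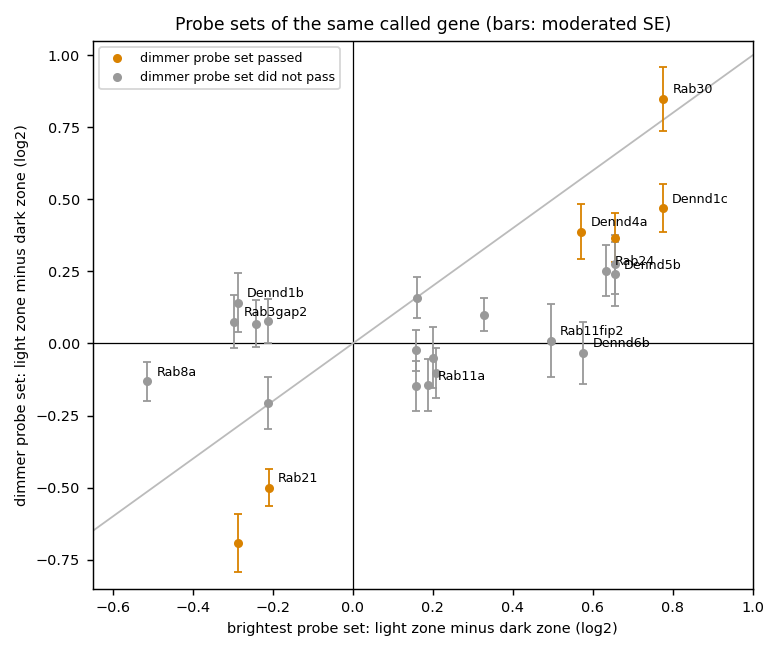
Light zone minus dark zone difference (log2) of dimmer probe sets above the filter (vertical axis, bars are the moderated SE) against that of the brightest probe set of the same called gene (horizontal axis); the grey line marks equal values. Rab30 lies near the line, at 0.849 against 0.776, while Dennd6b and Rab11fip2 lie near 0 on the vertical axis.

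RefSeq windows from 250 bases before to 50 bases after the gene start, in GRCm38.p6, were found for 73 of the 88 members, in 98 windows. The E-box CACGTG, the same on both strands and bound by MYC and by TFE family factors, which serve lysosome genes, was in 12.2% of member windows and 7.15% of all 32851 windows. By gene, 10 of 73 members with a window had it, and 6 of 29 called members. Among called members it was in Dennd6a, Rab23 and Rab24, called higher in the light zone. It was also in Rab21, Rab27a and Rab3gap2, called lower. Rab10os, Rab3il1 and Rab5a, which did not pass, and Rab20, which was too dim to test, had it as well. The E-box with GT before it and AC after it, searched after the sequences were seen and overlapping the E-box matches, was in windows of Rab21, Rab24 and Rab5a, in 3.06% of member windows and 0.326% of all windows. The AP-1 motif TGACTCA was in 3.06% of member windows and 5.2% of all, a kappaB-like motif in 3.06% and 1.63%, and the EGR motif GCGTGGGCG in 0 member windows and 0.612% of all, each on both strands. These matches describe the letters only. The stretches around the E-box (capitals) of the called members show its flanks, 5′ to 3′ on the strand of the gene: Dennd6a at chr14:26573743-26573788 (+) and, for a second start, chr14:26579473-26579518 (+), Rab23 at chr1:33719658-33719703 (+), Rab24 at chr13:55321969-55321998 (-), Rab21 at chr10:115315596-115315641 (-), Rab27a at chr9:73063898-73063927 (+) and Rab3gap2 at chr1:185203982-185204027 (+).
Dennd6a: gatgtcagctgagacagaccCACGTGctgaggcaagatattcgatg
Dennd6a: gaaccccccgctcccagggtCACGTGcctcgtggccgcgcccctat
Rab23: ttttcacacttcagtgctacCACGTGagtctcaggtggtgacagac
Rab24: gccacttccggcgcccgcgtCACGTGaccg
Rab21: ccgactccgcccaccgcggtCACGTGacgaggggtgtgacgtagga
Rab27a: cttgCACGTGctcctccgtctgtctgaacc
Rab3gap2: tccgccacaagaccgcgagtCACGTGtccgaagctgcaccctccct

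Other genes of the RAB cycle went both ways. Of 25 tested exchange factors outside the DENND genes, 7 rose in the light zone, 5 fell and 13 did not pass, with a median of 0.141. The 48.0% called was near the 43.9% of all genes tested. Rabgef1, the RAB5 exchange factor also called Rabex-5, had the largest rise, at 487 ± 4.68 in light zone arrays and 215 ± 29.8 in dark zone arrays (SD, n = 4 each), a difference of 1.19 (SE 0.09, limma adjusted p = 6.2e-07). The TRAPP subunit Trappc5 (0.81, SE 0.10) and Hps4 (0.54, SE 0.08), a subunit of the exchange factor for RAB32 and RAB38, followed. Lower in the light zone were Ccz1 (-0.42, SE 0.07) and Mon1b (-0.32, SE 0.08), parts of the exchange factor for RAB7, and the TRAPP subunit Trappc3 (-0.33, SE 0.08). The count lower was 3 without light zone array 3 or 4 or dark zone array 3 or 4, and with arrays centred on their medians or with the mean of all probe sets.

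Of 28 tested RAB effectors, 7 were higher in the light zone, 6 were lower and 15 did not pass, with a median of 0.005, and the 46.4% called was near the 43.9% of all genes tested. Rilpl2, a RILP-like effector of RAB8, RAB10 and RAB36, was at 271 ± 21.3 in light zone arrays and 60.5 ± 2.70 in dark zone arrays (SD, n = 4 each), a difference of 2.16 (SE 0.07, limma adjusted p = 1.4e-09). Fyco1 (0.63, SE 0.07), a RAB7 effector that links to kinesin, and Vps41 (0.45, SE 0.08), a subunit of the HOPS tether, were also higher. Anxa2, an annexin that also binds membranes on its own, was lower in the light zone (-1.26, SE 0.07), as were the Golgi tether Uso1 (-0.45, SE 0.06) and the lipid kinase Pik3c3 (-0.40, SE 0.07).

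Of 29 tested TBC domain GTPase-activating genes, 5 were higher in the light zone, 5 were lower and 19 did not pass, with a median of 0.021 and 34.5% called, beside 43.9% of all genes tested. Tbc1d14 (0.58, SE 0.06), Tbc1d1 (0.50, SE 0.12) and Tbc1d23 (0.40, SE 0.07) were higher. Tbc1d31 (-0.66, SE 0.08), Tbc1d7 (-0.37, SE 0.08), which is known as a subunit of the TSC complex, and Tbc1d4 (-0.33, SE 0.06) were lower. Of 7 tested GDI, escort and prenylation genes, Chm (0.32, SE 0.08) and Rabggtb (0.22, SE 0.08) had risen in the light zone, and Chml (-0.33, SE 0.07) and Gdi2 (-0.21, SE 0.05) lower. The count higher was 1 without light zone array 1, 2 or 3 or dark zone array 2 or 4, with the replicate number as a block, and with no filter or the filter at the 25th percentile.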

How the data were processed

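Total RNA of each sorted sample was made into biotin-labelled cRNA, as the labels' protocols say, for 1 Affymetrix array. The authors deposited RMA intensity values (RMA is named in the submitters' processing notes; its version is not given there) on a linear scale for 45037 probe sets. Log2 of these values was taken, with no pseudocount. RMA gives arrays nearly equal distributions, so changes in total RNA per cell are not seen, and differences of dim genes are understated. The table used holds intensities alone, without detection calls, and the number of arrays limits the precision.

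Probe sets with 1 gene symbol (34945; 932 had several and 9160 none) gave 18193 genes. The brightest probe set by mean stood for each gene and entered the tests if it was at or above the 50th percentile of probe set means, 27.8. All 88 member gene IDs matched the RefSeq table, with 0 symbols changed. Light zone minus dark zone was fitted with limma 3.58.1 in R 4.3.3 (lmFit, eBayes, two-sided, Benjamini-Hochberg over 10547 genes, adjusted p under 0.05). Standard errors are moderated; those of pairs are from the arrays. The fit was also run on simulated data with known differences in few genes and independent noise. That setting differs from these data, where 43.9% of genes passed, so it does not measure their false calls. Exact tests used scipy 1.17.1 and figures matplotlib 3.10.9 in Python 3.11.15.

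The members and lists were chosen with earlier results of these data known. Array values are given for called members at least 1.5-fold apart without overlap, for the 10 largest in each direction, and for others named for their role or relatives. Relatives were taken by symbol, since no protein sequences were used here. In pathway lists, the 3 largest called in each direction are named. Alternatives varied the filter, probe set, normalization, variance model, array weights, replicate block, threshold and arrays.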

Additional observations from a re-analysis of the deposited data

Results flagged for a closer look

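Among 132 groups of 4 arrays (66 tested members in 2 zones), 6 held an array far from the other 3 on the log2 scale, where chance flags about 1 in 20. Dark zone replicate 1 was the array in 4 of them: it was lowest for Rab3gap1 (294, the others 370 to 378) and Rab1b (169, the others 195 to 199.7), and highest for Rab2b (254, the others 182 to 186) and Dennd2d (236, the others 201 to 206). Light zone replicate 2 was lowest for Dennd1a (90.6, the others 94.2 to 94.9), and light zone replicate 3 for Rab29 (127, the others 143 to 145). Of these genes, Dennd1a and Dennd2d were called.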

How the results depend on the processing

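The 23 members higher and 8 lower in the light zone became 15 and 3 at an adjusted p under 0.01, where 30.4% of all genes passed. Under every other alternative run both counts were within 1.5 times: 17 to 24 higher and 6 to 11 lower, the counts without single arrays being 17 to 21 higher and 6 to 11 lower. The median difference of the members, 0.034, was 0.006 with no filter, 0.010 with the filter at the 25th percentile and 0.057 with arrays centred on their medians, and 0.020 to 0.046 without single arrays. The mean of all probe sets turned Rab10 to -0.004 and lost the calls of 9 others (Dennd2d, Dennd6b, Rab11a, Rab12, Rab1a, Rab23, Rab31, Rab3gap2 and Rab5b), leaving 17 higher and 8 lower; the cause was not tested. Of 31 called members, 22 were called in every fit without 1 array, 16 higher and 6 lower. The labels number the replicates alike in both zones. Deviations of same-numbered arrays correlated at 0.126, 0.189, 0.0596 and 0.243, over 0.1 in 3 of 4 pairs, and 7 of 8 arrays correlated best with their own number, a hint of pairing from the data and not the design; the labels do not say what a number shares, and the fit without the block was kept. With the replicate block 24 members were higher and 8 lower, and all 31 calls were kept. Dim members near the floor, 22 in all, were not tested in the main fit. With no filter Rab39, Rab32 and Rab33a of these passed, where 25.7% of all genes did. Rab33a was higher in the light zone by 0.211 (SE 0.066, limma adjusted p = 0.0297).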
